A study of Mus musculus with 8 samples.

Results

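The Slc25 mitochondrial carriers were taken as all genes whose symbol is Slc25a followed by a number, with 1 further carrier left out by the rule and not analysed here. There were 45 such genes among the 17457 genes listed in the kidney cortex, and 37 of them had at least 0.5 FPKM (fragments per kilobase of transcript, scaled to the library total) in at least 4 of 8 libraries. Kidney cortex mRNA came from C57BL/6J mice, an inbred strain, after 3 days on a normal Pi diet (0.6% phosphate) or a high Pi diet (1.2% phosphate). There were 4 mice per diet and 1 library per mouse, and the same strain served both diets with no transgene or deletion. The comparison asks which carriers differ in mRNA level between the diets, in a study that asked how the kidney detects dietary phosphate. Because the tissue was sequenced in bulk, fewer cells of a type and less RNA per cell cannot be told apart.

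Carriers of this family are small proteins that span the inner mitochondrial membrane and move charged metabolites across it, usually in exchange for one another. In the kidney cortex they bring Pi and ADP to the ATP synthase and export ATP. Others carry the malate, glutamate and aspartate that move reducing equivalents and gluconeogenic carbon between mitochondrion and cytosol, and a further group supplies cofactors. Pi itself enters through a dedicated phosphate carrier, in exchange for dicarboxylates, or in exchange for ATP-Mg.

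On the high Pi diet the carrier with the largest difference was Slc25a25, a calcium-regulated exchanger of ATP-Mg for Pi. It was 2.72 times as high on average as on the normal Pi diet, although 1 of the 4 high Pi libraries stayed at the normal level and the difference did not pass the test over all genes. By limma-trend on log2(FPKM + 1), where log2FC denotes the log2 fold change of high Pi over normal Pi, with p-values adjusted over the 12383 genes past the filter, 0 of the 37 carriers were higher and 0 were lower at an adjusted p of 0.05. Over all genes 0.178% were higher and 0.121% were lower by the same test. At an unadjusted p under 0.05 there were 3 carriers higher and 2 lower, which is 13.5% of the carriers against 9.35% of all genes. The 95% confidence interval stayed inside 1.5-fold, up or down, for 35 of the 37 carriers, as it did for 94.4% of all genes. The exceptions were Slc25a25 and Slc25a22, a glutamate carrier.

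High Pi replicate 1 was unlike the other libraries and bears on several carriers. Its root mean square log2 distance from its diet was 0.299 over all tested genes, against 0.138 to 0.212 in the other 7 libraries. Over the carriers alone this distance was 0.341, against 0.109 to 0.206. The largest single part of it came from Slc25a25, with 13.5 FPKM there against 32.9 to 41.7 in the other 3 high Pi libraries. Depth was estimated at 13250000 to 14150000 fragments per library from the steps between low values, a rough figure that depends on the assumed fragment length. Summed FPKM of S3 proximal tubule markers was 3642 in high Pi replicate 1, 5882 to 6135 in the normal Pi libraries and 8177 to 8819 in the other 3 high Pi libraries. Acy3 carried most of this sum, with 3139 FPKM in high Pi replicate 1 against 5218 to 5390 in normal Pi libraries. Of the 7 S3 markers 5 were lower in high Pi replicate 1 than in any normal Pi library. Slc5a1 was higher there, with 22.7 FPKM against at most 13.3, and Cyp7b1 lay within its normal Pi range. Summed FPKM of S1 and S2 proximal tubule markers was 5755 in high Pi replicate 1 and 5690 to 6607 in normal Pi libraries. In high Pi replicates 2 to 4 it was 4528 to 4951. Slc34a1, the main renal phosphate cotransporter, carried most of this sum, with 3163 FPKM in high Pi replicate 1 against 3529 to 4146 in normal Pi libraries, whereas 9 of the 13 markers were higher in that library than in any normal Pi library (Gatm had 669.61 FPKM against at most 570.01). With all 8 libraries limma-trend called 0 genes of either list. An unadjusted p under 0.05 was found for 4 of 13 S1 and S2 markers, each lower, and 2 of 7 S3 markers, each higher. Of all genes 9.35% had such a p. Slc5a2 and Slc34a1 were lower without overlap between diets, and Slc5a1 was higher without overlap. Among all genes 2.62% were lower and 2.41% higher in this way. Without high Pi replicate 1 limma-trend called 9 S1 and S2 markers lower and 3 S3 markers higher. In that fit 2.14% of all genes were called lower and 1.26% higher. The part of tubule segment composition in the results below was not tested. All 8 libraries were kept, and results that rest on high Pi replicate 1 are given with and without it.

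Carrier levels spanned 3 orders of magnitude, from 0.825 to 785 FPKM on average among the 37 carriers past the filter. Because FPKM is per length, these levels can be set side by side between genes. There were 5 carriers with a mean of at least 100 FPKM, 22 from 10 to 100 and 9 from 1 to 10, and Slc25a24 lay just inside the filter. The leading order was Slc25a5, Slc25a39, Slc25a3, Slc25a4 and Slc25a10, and it was the same in each of the 8 libraries with no overlap of ranges between neighbours. Below Slc25a10 the order was less firm. Slc25a23 followed Slc25a10 by its mean of 98.7 FPKM, but it exceeded Slc25a11 (mean 98.4 FPKM) in only 1 of 8 libraries. Of all 36 neighbouring pairs, 12 kept their order in 8 libraries and 10 had ranges that did not overlap.

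**Figure D1:**
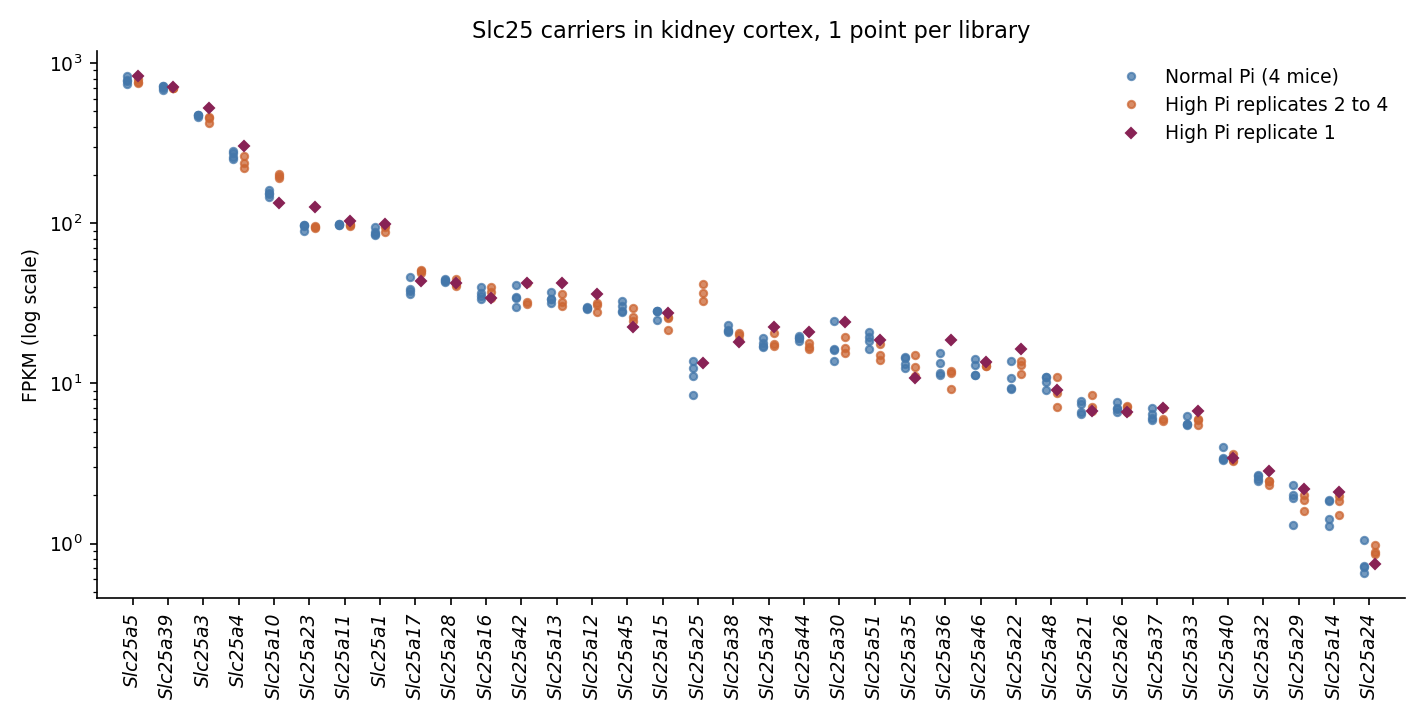
FPKM on a log scale (vertical axis) of 36 of the 37 Slc25 carriers past the filter, ordered by mean level from left to right, with 1 point per library: normal Pi (4 mice, blue), high Pi replicates 2 to 4 (orange) and high Pi replicate 1 (purple diamond). The 2 diets lie on top of each other for most carriers, while Slc25a25 has 3 high Pi points at 32.9 to 41.7 FPKM above the remaining 5.

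The 4 most abundant carriers held 67.6% to 70.8% of the summed carrier FPKM in each library. The carriers together summed to 3130 to 3235 FPKM on the normal Pi diet, to 3374 FPKM in high Pi replicate 1 and to 3162 to 3177 FPKM in the other high Pi libraries. Replicates of a carrier differed by a median coefficient of variation of 6.85% among normal Pi mice and 10.9% among high Pi mice. Over the 37 carriers the median log2FC was 0.0100, against -0.0111 over all tested genes, with 21 carriers above 0 and 16 below. An absolute log2FC under 0.1 was found in 21 of the 37.

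**Figure D2:**
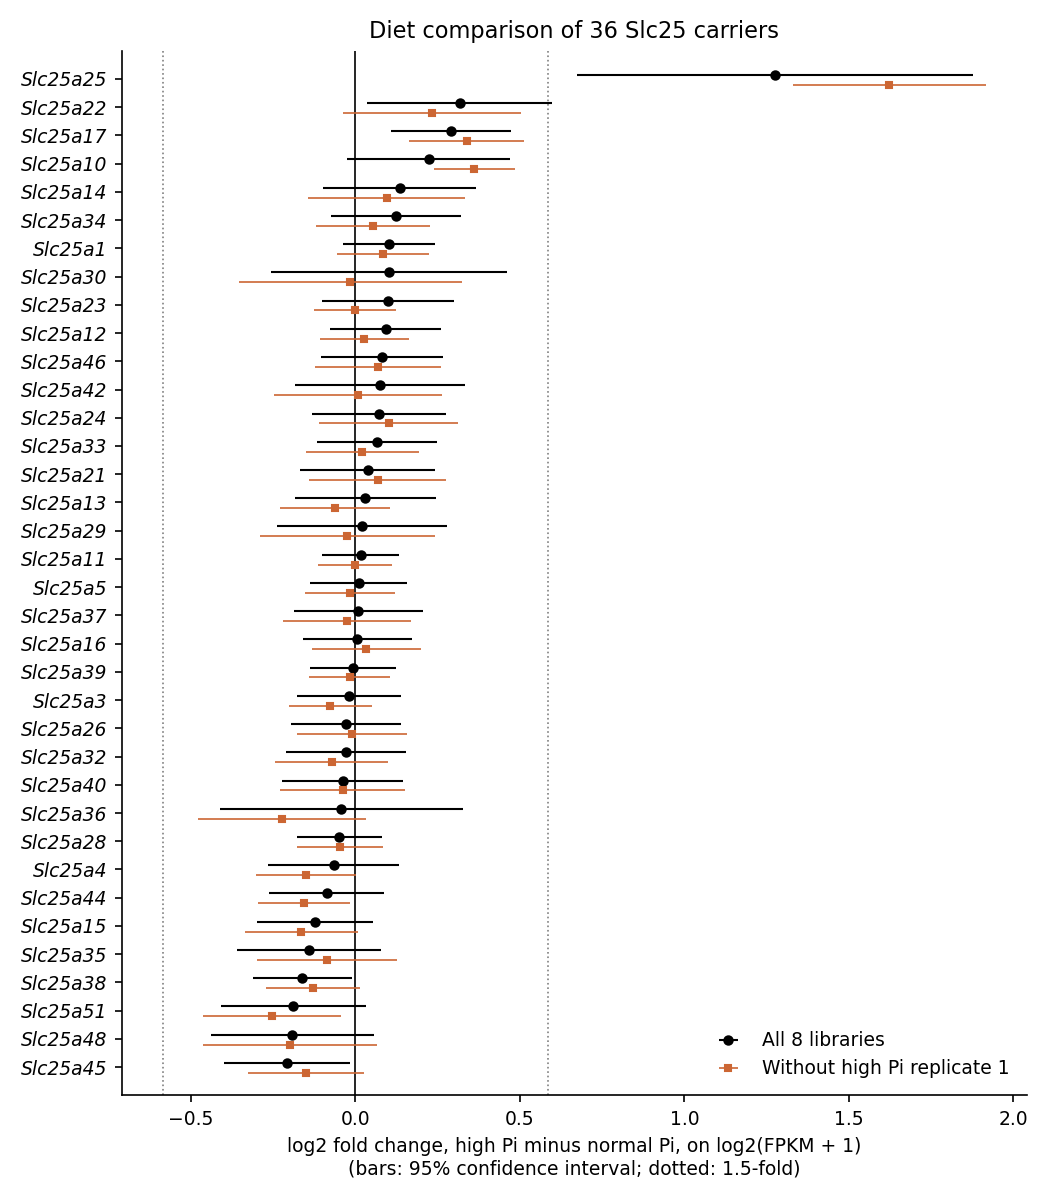
Fitted log2FC of 36 of the 37 Slc25 carriers past the filter, with its 95% confidence interval from limma-trend for all 8 libraries (black circles) and without high Pi replicate 1 (orange squares). Dotted lines mark a 1.5-fold change. Slc25a25 lies at 1.28 and the other 35 carriers drawn lie between -0.21 and 0.32.

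Phosphate and adenine nucleotide carriers are the route by which Pi reaches the mitochondrial matrix and ATP leaves it. Of 8 such genes 6 passed the filter, 0 passed the test in either direction, and their median log2FC was 0.04. Slc25a3, the mitochondrial phosphate carrier (gene ID 18674, chromosome 10 of GRCm38.p6, 91116574 to 91124046), had 475, 459, 473 and 475 FPKM in the normal Pi mice and 523, 421, 462 and 457 FPKM in the high Pi mice. High Pi values fell on both sides of the normal Pi values, with the highest in replicate 1. Its means were 470.3 ± 7.77 (SD, n = 4) and 466 ± 42.1 (SD, n = 4), and the log2FC was -0.02 (95% confidence interval -0.18 to 0.14, limma-trend adjusted p = 0.977).

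The ADP/ATP exchangers were among the most abundant carriers and were at similar levels on both diets. Slc25a5, the exchanger found in most dividing and epithelial cells, had 834, 743, 768 and 782 FPKM on the normal Pi diet and 830.0, 800.4, 763 and 755 FPKM on the high Pi diet. Slc25a4, the heart and muscle type, had 283, 273, 259 and 251 FPKM on the normal Pi diet and 303, 222, 262 and 238 FPKM on the high Pi diet. In both genes the diets overlapped, and log2FC values were 0.01 for Slc25a5 (95% confidence interval -0.14 to 0.16) and -0.07 for Slc25a4 (-0.26 to 0.13). Slc25a5 exceeded Slc25a4 by 2.72 to 3.11 times on the normal Pi diet and by 2.74 to 3.60 times on the high Pi diet, on the FPKM scale. These genes are close paralogs, and how reads that fit both were assigned is not given in the sources used here. Slc25a31, the testis type, had at most 0.07 FPKM in any library.

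Exchange of ATP-Mg for Pi is carried by 4 related genes, of which Slc25a41 was listed at 0 in all 8 libraries. Slc25a25 (gene ID 227731, chromosome 2, 32414487 to 32451470) had 12.5, 8.50, 11.1 and 13.7 FPKM in the normal Pi mice and 13.5, 32.9, 36.4 and 41.7 FPKM in the high Pi mice. The last 3 high Pi libraries lay above every normal Pi library, whereas high Pi replicate 1 lay among them. Means were 11.4 ± 2.24 FPKM (SD, n = 4) and 31.1 ± 12.3 FPKM (SD, n = 4), on about 460 estimated fragments per library (counting error 4.7%). The log2FC was 1.28 (standard error SE 0.276, 95% confidence interval 0.67 to 1.88, unadjusted p = 0.000602, limma-trend adjusted p = 0.102). An exact two-sided permutation test of the FPKM gave p = 0.0571, where 0.0286 is the smallest that 4 mice against 4 allow. Without high Pi replicate 1 the mean of the remaining 3 was 37.0 ± 4.45 FPKM (SD, n = 3), 3.23 times the normal Pi mean. The log2FC was then 1.62 with a limma-trend adjusted p of 0.000158.

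The other ATP-Mg/Pi carriers did not follow the pattern of Slc25a25. Slc25a23, the most abundant of them, had 89.0, 97.3, 95.7 and 97.4 FPKM on the normal Pi diet and 126, 96.1, 95.1 and 92.9 FPKM on the high Pi diet. High Pi replicate 1 was thus highest for Slc25a23 and the other 3 high Pi libraries lay within the normal range. The log2FC was 0.10 with all libraries and -0.000913 without high Pi replicate 1. Slc25a24 had 0.65 to 1.05 FPKM on the normal Pi diet and 0.75 to 0.98 FPKM on the high Pi diet, on about 37 estimated fragments (counting error 16%).

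Summed over Slc25a23, Slc25a24 and Slc25a25, the ATP-Mg/Pi carriers had 102.5, 106, 107 and 112 FPKM on the normal Pi diet and 140.0, 130.0, 132 and 135 FPKM on the high Pi diet. The 4 high Pi sums lay above the 4 normal Pi sums, a description of values chosen after they were seen, with no test. The genes behind the higher sum differed between libraries. Slc25a25 made up 7.98% to 12.3% of the sum on the normal Pi diet and 9.63% in high Pi replicate 1, where Slc25a23 was high. In high Pi replicates 2, 3 and 4 it made up 25.3%, 27.5% and 30.8%. The ratio of Slc25a23 to Slc25a25 was 7.11 to 11.4 on the normal Pi diet, 9.33 in high Pi replicate 1 and 2.23 to 2.93 in the other 3.

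**Figure D3:**
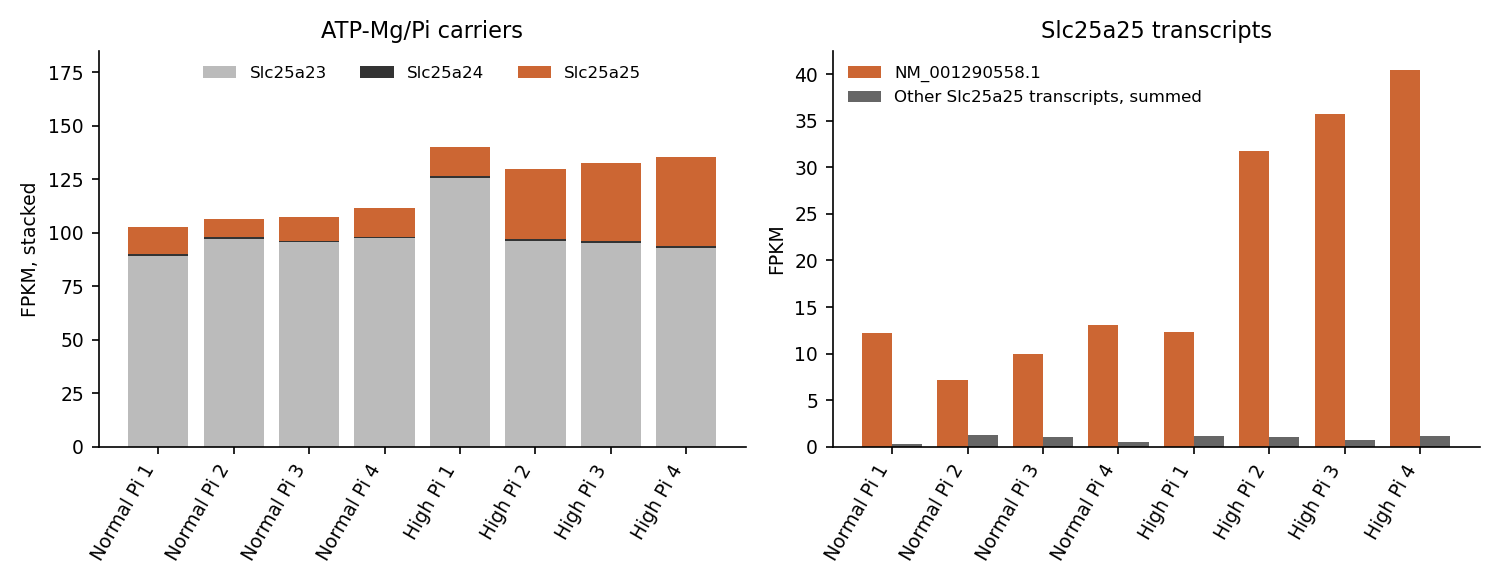
Left, FPKM of the 3 measured ATP-Mg/Pi carriers stacked for each of the 8 libraries. Right, FPKM of the Slc25a25 transcript NM_001290558.1 (orange) beside the sum of the other Slc25a25 transcripts (grey) in the same libraries, where the leading transcript reaches 31.8 to 40.5 FPKM in high Pi replicates 2 to 4 and 12.4 FPKM in high Pi replicate 1.

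Slc25a25 has several start sites, and the deposited transcript values place nearly all of its RNA on 1 of them. Of 7 Slc25a25 transcripts listed, NM_001290558.1 held 95.6% of the gene's summed FPKM over the libraries (84.6% to 98.0% in single libraries). Its values were 12.2, 7.19, 9.96 and 13.1 FPKM on the normal Pi diet and 12.4, 31.8, 35.7 and 40.5 FPKM on the high Pi diet. Each of the other 6 had a mean of at most 0.416 FPKM. NM_001290558.1 begins at base 32424005 of chromosome 2 on the minus strand in the reference annotation of GRCm38, 61 bases inside the nearest RefSeq start site at 32424066. The next nearest start site of the gene is 7146 bases away. The 300 bases around this internal start site (250 before it to 50 after) are printed from RefSeq GRCm38.p6, since it is the annotated start site nearest to the first base of the transcript that carries the difference. That first base lies downstream of the printed window. In capitals is the cAMP response element TGACGTCA, a sequence bound by CREB-family factors, which was searched for on both strands (it reads the same on each) after the transcript values were seen.
Slc25a25 internal start site, chr2:32424017-32424316, minus strand: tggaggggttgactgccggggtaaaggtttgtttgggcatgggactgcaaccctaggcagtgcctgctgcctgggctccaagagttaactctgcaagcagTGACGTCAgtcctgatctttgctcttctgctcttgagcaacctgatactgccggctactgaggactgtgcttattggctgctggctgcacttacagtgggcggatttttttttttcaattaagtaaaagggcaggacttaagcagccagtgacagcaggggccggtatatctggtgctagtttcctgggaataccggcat
The element lies from base -150 to base -143 relative to the start site, which is counted as 0. It is absent from the 300-base windows of the gene's other 2 start sites in the table, at 32431151 and 32451470.

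The same letters stand in 588 of 32851 promoters in the RefSeq table (1.79%), and in 2 of the 44 promoters of the 34 carriers that have one there. The shorter half-site TGACG, which is part of the full element and was counted on either strand, stands in 20.8% of all promoters and in 13 of the 44 carrier promoters. The other carrier promoter with the full element belongs to Slc25a36, a pyrimidine nucleotide carrier, and 48 bases of it are shown to set its letters beside those of Slc25a25.
Slc25a36, chr9:97111175-97111222, minus strand: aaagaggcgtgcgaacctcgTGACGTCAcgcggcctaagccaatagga
Slc25a36 had 11.2 to 15.4 FPKM on the normal Pi diet and 9.19 to 18.6 FPKM on the high Pi diet, with a log2FC of -0.04. A match of letters is a description and not evidence of binding.

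Carboxylate and aspartate-glutamate carriers serve the malate-aspartate shuttle and the export of citrate and malate. Of 8 genes 7 passed the filter, and their log2FC values were above 0 with a median of 0.09, although those of Slc25a11 and Slc25a13 turned negative with library weights. The test was passed by 0 of them, and 1 had an unadjusted p under 0.05. Slc25a10, which exchanges malate or succinate for Pi (gene ID 27376, chromosome 11, 120491837 to 120501161), had 147, 161, 154 and 152 FPKM on the normal Pi diet and 134, 198, 191 and 202 FPKM on the high Pi diet. High Pi replicate 1 was the lowest of the 8 libraries and the other 3 high Pi libraries were the highest. The log2FC was 0.22 (SE 0.114, limma-trend adjusted p = 0.590). Without high Pi replicate 1 the mean was 1.29 times the normal Pi mean, and the log2FC of 0.36 had a limma-trend adjusted p of 0.00761.

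Slc25a11, which exchanges oxoglutarate for malate, had 96.9 to 99.0 FPKM on the normal Pi diet and 96.4 to 103 FPKM on the high Pi diet. Its log2FC was 0.02 (95% confidence interval -0.10 to 0.13), and replicates varied by 1.08% and 2.69% (coefficient of variation). The ratio of Slc25a10 to Slc25a11 was 1.51 to 1.63 on the normal Pi diet, 1.31 in high Pi replicate 1 and 1.92 to 2.07 in the other 3 high Pi libraries. Both carry malate. Slc25a1, the citrate carrier, had 84.0 to 94.8 FPKM on the normal Pi diet and 88.1 to 98.7 FPKM on the high Pi diet, a log2FC of 0.10.

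The aspartate-glutamate carriers were near equal to each other in level. Slc25a12, known as aralar, had 29.3 to 29.9 FPKM on the normal Pi diet and 28.0 to 36.3 FPKM on the high Pi diet. Slc25a13, known as citrin and the main form in liver, had 31.9 to 37.4 FPKM on the normal Pi diet and 30.2 to 42.3 FPKM on the high Pi diet. In both, high Pi replicate 1 was the highest of the 8 libraries, and log2FC values were 0.09 for Slc25a12 and 0.03 for Slc25a13.

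Slc25a22, which brings glutamate into mitochondria, had 9.26, 13.9, 9.35 and 10.8 FPKM on the normal Pi diet and 16.3, 11.5, 13.0 and 13.8 FPKM on the high Pi diet. The ranges overlapped, with high Pi replicate 1 the highest. Its log2FC was 0.32 (SE 0.129, unadjusted p = 0.0310, limma-trend adjusted p = 0.438), and 0.23 in the fit without high Pi replicate 1. Slc25a18, the glutamate carrier known mainly from brain astrocytes, had at most 0.06 FPKM. Slc25a21, the oxodicarboxylate carrier of lysine and tryptophan breakdown, had 6.46 to 7.75 FPKM on the normal Pi diet and 6.75 to 8.50 FPKM on the high Pi diet, a log2FC of 0.04.

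Of the amino acid carriers 6 of 7 were tested, 5 had log2FC values below 0, the median was -0.14 and 0 passed the test. Slc25a38, a glycine carrier needed for heme synthesis (gene ID 208638, chromosome 9, 120110377 to 120126093), had 21.5, 23.2, 21.1 and 21.3 FPKM on the normal Pi diet and 18.0, 20.5, 20.2 and 18.8 FPKM on the high Pi diet. Its high Pi values were each below its normal Pi values, which made it the 1 carrier of 37 whose diets did not overlap in this direction. Over all genes 2.62% were lower without overlap and 2.41% were higher without overlap, and 0 carriers were higher. The log2FC was -0.16 (SE 0.0693, limma-trend adjusted p = 0.479). The exact two-sided permutation p was 0.0286, the smallest possible, which the lack of overlap fixes in advance.

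Slc25a45 had 27.8, 30.4, 28.3 and 32.4 FPKM on the normal Pi diet and 22.6, 25.9, 29.7 and 24.6 FPKM on the high Pi diet. High Pi replicate 3 lay within the normal range and the other 3 lay below it. The log2FC of Slc25a45 was -0.21 (unadjusted p = 0.0352, limma-trend adjusted p = 0.463), and without high Pi replicate 1 it was -0.15. Slc25a48 had 9.11 to 11.0 FPKM on the normal Pi diet and 7.14 to 11.0 FPKM on the high Pi diet, a log2FC of -0.19. Its place among the amino acid carriers is an assignment of the list used here, on which the group's count and median depend. The remaining tested members of the group were the ornithine carrier of the urea cycle Slc25a15, the basic amino acid carrier Slc25a29 and the branched-chain amino acid carrier Slc25a44, with log2FC values from -0.12 to 0.02.

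Cofactor, nucleotide, iron and glutathione carriers were the largest group, with 13 of 14 genes past the filter, a median log2FC of -0.03 and 0 genes past the test. Slc25a17, which carries coenzyme A and related nucleotides across the peroxisomal membrane (gene ID 20524, chromosome 15, 81318921 to 81360765), had 46.0, 36.1, 37.6 and 38.8 FPKM on the normal Pi diet and 43.8, 50.1, 49.1 and 51.3 FPKM on the high Pi diet. The ranges met only because normal Pi replicate 1 exceeded high Pi replicate 1. Its means were 39.6 ± 4.40 FPKM (SD, n = 4) and 48.6 ± 3.30 FPKM (SD, n = 4). The log2FC was 0.29 (SE 0.0837, unadjusted p = 0.00459, limma-trend adjusted p = 0.218). Without high Pi replicate 1 it was 0.34 with a limma-trend adjusted p of 0.0422.

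**Figure D4:**
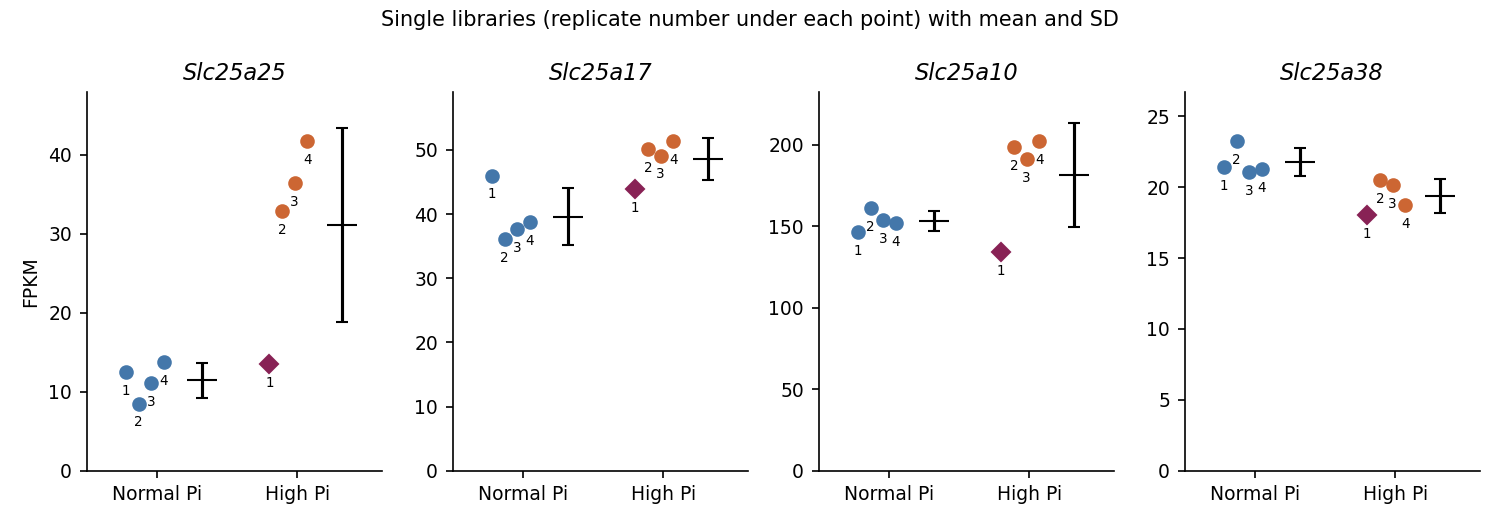
FPKM (vertical axes from 0) of Slc25a25, Slc25a17, Slc25a10 and Slc25a38 in each library, with the replicate number under each point, and the mean with its SD (n = 4 mice per diet) as a bar. High Pi replicate 1 (purple diamond) lies at or near the normal Pi points for Slc25a25 and below them for Slc25a10 at 134 FPKM, while the high Pi points of Slc25a38 are each below the normal Pi points.

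Slc25a39, which imports glutathione, was the second most abundant carrier and among the steadiest, with 675 to 721 FPKM on the normal Pi diet and 694 to 712 FPKM on the high Pi diet. The log2FC was -0.01 (95% confidence interval -0.14 to 0.12). Slc25a39 exceeded its paralog Slc25a40 by 179.8 to 215 times in the 8 libraries. The mitoferrins, which import iron, were also steady: Slc25a28 had 43.2 to 44.6 FPKM on the normal Pi diet and 40.5 to 45.2 FPKM on the high Pi diet, and exceeded Slc25a37 by 6.04 to 7.33 times.

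Slc25a51, which imports NAD, had 16.4 to 20.9 FPKM on the normal Pi diet and 14.1 to 18.8 FPKM on the high Pi diet, a log2FC of -0.19 (limma-trend adjusted p = 0.622). A further 8 tested members had log2FC values from -0.04 to 0.08 and included carriers for coenzyme A (Slc25a42), S-adenosylmethionine (Slc25a26) and folate (Slc25a32).

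Carriers related to uncoupling proteins and those with less settled substrates were expressed at moderate or low levels. Slc25a14 had 1.29 to 1.88 FPKM on the normal Pi diet and 1.51 to 2.09 FPKM on the high Pi diet, a log2FC of 0.13 on about 42 estimated fragments (counting error 15%). Slc25a30, named for its high expression in kidney, had 13.7 to 24.5 FPKM on the normal Pi diet and 15.5 to 24.0 FPKM on the high Pi diet, with a log2FC of 0.10. Its coefficient of variation was 26.7% among normal Pi mice, and its mean on the high Pi diet was 1.07 times that on the normal Pi diet. Slc25a34, Slc25a35 and Slc25a46 had log2FC values from -0.14 to 0.12. The 8 carriers below the filter were Slc25a27, Slc25a47, Slc25a43, Slc25a53, Slc25a18, Slc25a2, Slc25a31 and Slc25a41, none above 0.72 FPKM in any library.

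Leaving out high Pi replicate 1 changed the count of calls among the carriers from 0 to 3 higher, with 0 lower. The 3 were Slc25a25, Slc25a17 and Slc25a10, which is 8.11% of the carriers, against 1.26% of all genes called higher and 2.14% called lower in the same fit. Each of these carriers had its other 3 high Pi values above its 4 normal Pi values, which restates the values behind the calls. Slc25a38 and Slc25a44 had these 3 high Pi values below their 4 normal Pi values and were not called. The share of all genes without overlap in this setting was not counted. Leaving out any other single library gave 0 carriers in either direction.

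Transcript shares within a gene, which do not depend on the gene's level, were compared for carriers with more than 1 transcript at 10% or more of the gene. This gave 37 transcripts of 17 carriers, of 144 transcripts listed. By exact two-sided permutation tests 2 transcripts had p = 0.0286, the smallest that 4 mice against 4 allow. An adjusted p under 0.05 would have needed 22 transcripts at that value, so the 0 that passed is set by the design. They are the 2 tested transcripts of Slc25a11, so 1 share mirrors the other. The share of NM_024211.3 was 73.2%, 74.6%, 80.6% and 78.9% on the normal Pi diet and 68.5%, 68.5%, 69.4% and 72.4% on the high Pi diet. The lowest normal Pi share exceeded the highest high Pi share by little, and the adjusted p was 0.423. Exons of Slc25a11 overlap those of Rnf167 on the other strand over 8.92% of their bases, and whether reads were counted by strand is not given in the sources used here. The same limit applies to Slc25a25, with 4.82% of its exonic bases shared with Naif1, and to Slc25a35, with 31.3% shared with Rangrf.

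Genes around the carriers gave few differences. Of 84 tested nuclear genes of the respiratory chain and ATP synthase, 0 passed the test and the median log2FC was -0.000361, and of 78 mitochondrial ribosomal protein genes 0 passed and the median was 0.000992. Among 5 lists of the carriers' relatives, other transporters, import machinery, channels and mitochondrial content, 0 genes passed and 2 were without overlap between diets. Ucp2, an uncoupling protein of the same family under another symbol, had 86.6 to 116 FPKM on the normal Pi diet and 119 to 194 FPKM on the high Pi diet, with the highest value in high Pi replicate 1 (log2FC 0.53, limma-trend adjusted p = 0.164). Tomm5, a subunit of the outer membrane import pore, had 81.2 to 87.9 and 89.2 to 116 FPKM (log2FC 0.30, limma-trend adjusted p = 0.220). Among 39 partner enzymes of shuttles and of cofactor and iron supply 0 passed the test. Glud1, glutamate dehydrogenase, was higher without overlap (log2FC 0.20).

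Markers of other tissues were read beside the carriers, since fat and muscle are rich in some of them. Brown fat markers other than Cox7a1 had at most 3.88 FPKM in any library. The diets overlapped for Dio2, Cox7a1 and Cox8b and did not for Ucp1 and Cidea, both near 0. Dio2 had at most 0.01 FPKM on either diet. Ucp1, which defines brown fat, had 0 to 0.05 FPKM on the normal Pi diet and 0.14 to 0.43 FPKM on the high Pi diet. Cidea had 0 to 0.07 and 0.26 to 0.61 FPKM. Cox8b had 0 to 1.38 and 0.54 to 3.88 FPKM (log2FC 1.14, limma-trend adjusted p = 0.287), and 1.44 without high Pi replicate 1 (limma-trend adjusted p = 0.0369). Skeletal muscle markers summed to at most 1.34 FPKM. Of 6 adipocyte markers 2 passed the filter, and the summed FPKM of the 6 was 34.0 to 104 in normal Pi mice and 43.8 to 308 on the high Pi diet, with 54.7 in high Pi replicate 1. Fabp4 alone had 33.9 to 61.0 FPKM on the normal Pi diet and 42.8 to 112 FPKM on the high Pi diet. Cfd had 0 to 35.7 and 0.72 to 164 FPKM. Adipoq and Plin1 were at 0 in at least 1 library of each diet. Leukocyte markers summed to 280.3 to 317 FPKM on the normal Pi diet and 278 to 437 FPKM on the high Pi diet, and endothelial markers to 226 to 260 and 256 to 314 FPKM. Cd74 carried most of the leukocyte sum, with 248 to 280 and 243 to 388 FPKM, while Ptprc had at most 1.64 FPKM. Of 12 distal tubule and collecting duct markers 9 had log2FC values below 0 (median -0.08, or -0.19 without high Pi replicate 1). The 1 that passed the test was Pvalb, a marker of the early distal convoluted tubule, which rose by 0.49 on the log2 scale (limma-trend adjusted p = 0.0420). Slc26a4, an anion exchanger of intercalated cells, was lower without overlap, with 22.7 to 25.8 FPKM on the normal Pi diet and 14.3 to 22.7 FPKM on the high Pi diet (limma-trend adjusted p = 0.191). Without high Pi replicate 1 it was called lower, as was Calb1, a calcium-binding protein of the distal tubule, and Pvalb was called higher. The part of these cell types in the carrier values was not tested.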

How the data were processed

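mRNA of kidney cortex was sequenced on the BGI DNBSEQ platform from 8 mice, 4 per diet. According to the submitters' processing notes reads were aligned to GRCm38.p6 with HISAT and Bowtie2. The versions, counting step, strand setting and gene models are not given in the sources used here. The authors deposited FPKM per gene and per transcript, rounded to hundredths. The study's own test ran on counts, which were not used here, so FPKM were tested on a log scale.

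Diets and replicate numbers were read from the labels, and the 3 days from the study's methods. The test was limma-trend (limma 3.58.1, R 4.3.3) on log2(FPKM + 1), over the 12383 genes that reached 0.5 FPKM in 4 or more libraries. P-values were adjusted by Benjamini-Hochberg over these genes. The fold change on this scale understates the change of genes near 1 FPKM. P-values measure the spread between mice, 1 library each. The code was tested on simulated data. Transcript shares and single genes were compared by exact permutation over 70 assignments. Estimated fragments per gene follow from FPKM, transcript length less 100 bases and the estimated depth, and errors given with them cover counting only.

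Alternatives were quantile normalization, median-of-ratios scaling, library weights, a pseudocount of 0.1, leaving low values unfiltered, removal of the trend on transcript length, the replicate number as a block, a minimum transcript share of 5%, and leaving out each library. Neither the labels nor the study's methods say that replicate numbers pair the mice, and the main fit was unpaired. Members, gene lists and alternatives were chosen with earlier results of these data known. Carriers named with values are those called, those without overlap between diets, the 10 most abundant, the 5 largest positive and negative log2 fold changes at a mean of at least 1 FPKM, those called without 1 library, and the first 2 role groups. Other names were chosen after their values were seen. Values of some genes that this rule names are left out here. All 45 carriers matched RefSeq GRCm38.p6 by gene ID. Tables and plots were made with Python 3.11.15, numpy 2.4.6, pandas 2.3.3, scipy 1.17.1 and matplotlib 3.10.9.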

Additional observations from a re-analysis of the deposited data

Results flagged for a closer look

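Of 74 groups of 4 libraries (37 carriers on 2 diets), 7 held a library far from the other 3, where chance alone would give about 1 in 20, or 3.7. High Pi replicate 1 gave 3 of them. Slc25a39 had 712.45 FPKM there against 693.81 to 694.24 in the other 3, a small step made visible by their closeness. Slc25a10 had 134.01 FPKM there against 190.95 to 202.01, and Slc25a23 had 125.79 FPKM against 92.92 to 96.12. Normal Pi replicate 2 was low for Slc25a3, with 458.79 FPKM against 472.61 to 475.14, and high for Slc25a40, with 4.01 FPKM against 3.33 to 3.40. Normal Pi replicate 3 was low for Slc25a15, with 25.01 FPKM against 28.14 to 28.26, and high for Slc25a33, with 6.22 FPKM against 5.46 to 5.58. Slc25a25 in high Pi replicate 1 was not among them.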

How the results depend on the processing

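The count of carriers called higher was 0 and went to 3 with library weights, which gave log2 fold changes of 0.35 for Slc25a17, 1.49 for Slc25a25 and 0.34 for Slc25a10. Leaving out 1 library gave 0 to 3 carriers higher, the 3 without high Pi replicate 1. Carriers called lower numbered 0 under each alternative run. Transcripts with a changed share also numbered 0, which the few mice fix in advance. With the replicate number as a block 0 carriers were called, and the limma-trend adjusted p of Slc25a25 was 0.202 (log2 fold change 1.28, which a balanced block cannot move). Same-numbered mice did not deviate together (correlations -0.21 to 0.06), and 1 of 4 correlated best with its own number. Over all genes 37 were called with all libraries, 26 after quantile normalization, 27 with median-of-ratios scaling, 8 with no filter, 466 with library weights, 11 with the block, 4 to 19 without another library and 421 without high Pi replicate 1. For 22 named carriers, 308 of 330 alternative log2 fold changes kept direction and side of the threshold. Signs turned where the value was near 0. With library weights values were -0.0103 for Slc25a5, 0.000890 for Slc25a39, -0.00255 for Slc25a11 and -0.00964 for Slc25a13. Quantile normalization gave -0.00424 for Slc25a5 and median-of-ratios scaling 0.00432 for Slc25a39. Leaving out 1 library gave ranges of -0.0158 to 0.0416 for Slc25a5, -0.0265 to 0.00496 for Slc25a39, -0.0754 to 0.0282 for Slc25a3, -0.000913 to 0.143 for Slc25a23, -0.000785 to 0.0285 for Slc25a11, -0.0611 to 0.0962 for Slc25a13 and -0.0294 to 0.0792 for Slc25a21. The log2 fold change of Slc25a25 ran from 1.10 to 1.62 (limma-trend adjusted p 0.000158 to 0.261), Slc25a17 from 0.25 to 0.36 (0.0132 to 0.462) and Slc25a10 from 0.17 to 0.36 (0.00761 to 0.869) over their alternatives. The causes of these moves were not tested. Estimated counting error is above 10% only for carriers under 2 FPKM, so depth limits mainly Slc25a29, Slc25a14 and Slc25a24.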

Other observations

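Several enzymes and regulators near the carriers passed limma-trend without high Pi replicate 1 and not with it, and are named here after their values were seen. They come from lists of 3, 19, 16, 4, 14, 17 and 22 tested genes. Of all genes 1.26% were called higher and 2.14% lower in the same fit. Lower on the high Pi diet in that fit were Ass1, which joins citrulline and aspartate (log2 fold change -0.43, adjusted p = 0.0369), Oat, ornithine aminotransferase (-0.30, adjusted p = 0.0335), Sfxn2, a sideroflexin (-0.37, adjusted p = 0.0188), and Ppargc1a, a coactivator of mitochondrial biogenesis (-0.51, adjusted p = 0.0104). Higher were Arg2, mitochondrial arginase (0.64, adjusted p = 0.0411), and Tomm5 (0.37, adjusted p = 0.0146). With all 8 libraries their limma-trend adjusted p ran from 0.215 to 0.560. Slc25a44, the branched-chain amino acid carrier, had 16.5 to 18.0 FPKM in high Pi replicates 2 to 4, below its normal Pi range of 18.5 to 19.9, and 20.9 in high Pi replicate 1 (log2 fold change -0.15 without that library, adjusted p = 0.217).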
